A study of Mus musculus with 26 samples.

Results

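The genes described here are 33 genes of the interferon response and of antigen presentation, chosen by their function, of which 32 were found by symbol in every expression table of mouse liver, out of 22322 symbols in all. Each symbol was represented by its best expressed transcript. The regulator Nlrc5 was listed among the 33 and had no row under that symbol, so it is not analysed here. All 32 passed the filter of a mean RPKM (reads divided by transcript length in kilobases and by library depth) of at least 0.5 in both experiments. They comprised 4 signalling genes, 12 antiviral genes, 5 interferon-induced GTPases, 6 genes of MHC class I presentation and 5 of MHC class II presentation.

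RNA was sequenced from livers of mice 8 weeks of age that had been moved from a light and dark cycle to constant darkness before collection. The Bmal1 experiment had 12 libraries, 3 each of liver-specific Bmal1 knockout mice at CT0, C57BL/6 controls at CT0, knockout mice at CT12 and controls at CT12. The Nr1d1 experiment had 8 libraries, 2 each of Nr1d1 knockout mice at CT0, C57BL/6 controls at CT0, knockout mice at CT12 and controls at CT12. CT0 is lights-on by the former cycle, and CT12 falls 12 h after it. The labels do not name the Cre driver of the liver deletion, and cells other than hepatocytes may keep Bmal1. In the Nr1d1 experiment the labels call the libraries of replicate 2 paired-end and not those of replicate 1, so knockout and control livers of that experiment were set side by side within each replicate.

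Type I interferons, made when a cell senses foreign nucleic acid, act through a receptor and its JAK kinases, which lead to binding of the interferon-stimulated response element in the promoters of antiviral genes. Interferon gamma, made by T cells and natural killer cells, acts through a receptor of its own, mainly at the gamma-activated site, and induces the GTPases and the genes of antigen presentation. MHC class I presents peptides from the cytosol on nearly every cell, hepatocytes included. MHC class II is made mainly by professional presenting cells, which in liver include Kupffer cells and dendritic cells, and sinusoidal endothelium can make it as well.

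Promoter sequence was taken from RefSeq on build GRCm38.p6, whose windows run 250 bases before to 50 bases after each gene start, and 26 of the 33 genes had a window. The response element, searched on either strand as GAAA, any 2 bases and GAAA, was found in 14 of these 26 genes and in 3.44% of all 32851 windows. It was held by 8 of 11 antiviral genes, 4 of 4 GTPases, 1 of 4 signalling genes, 1 of 5 class I genes and 0 of 2 class II genes. The gamma-activated site, spelled TTCNNNGAA, was found in 5 of the 26 genes and in 8.3% of all windows. Its holders were 3 of 11 antiviral genes, 1 of 4 signalling genes, 1 of 4 GTPases, 0 of 5 class I genes and 0 of 2 class II genes. The CCAAT box, part of the enhancer shared by MHC promoters, was found in 14 of the 26 genes and in 37.4% of all windows. It was held by 5 of 5 class I genes and 2 of 2 class II genes. The other holders were 4 of 11 antiviral genes, 2 of 4 signalling genes and 1 of 4 GTPases. The E-box CACGTG, to which BMAL1 binds with CLOCK, was in 0 of the 26 genes and in 7.15% of all windows. These matches describe letters in a window and not bound sites.

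The 250 bases before the start are printed for 6 genes on which the comparisons turn. Isg15 lies at chr4:156200819-156201068 (minus strand), Oas1a at chr5:120907526-120907775 (minus strand), Ifit1 at chr19:34640639-34640888 (plus strand), Igtp at chr11:58199306-58199555 (plus strand), H2-K1 at chr17:34000334-34000583 (minus strand) and H2-Aa at chr17:34287824-34288073 (minus strand). Capitals mark the response element in Isg15 and Ifit1, the response element and the gamma-activated site in Oas1a and Igtp, and the CCAAT box in H2-K1 and H2-Aa. Marked elements that overlap run together, as in Isg15, where 3 of them share letters.
Isg15: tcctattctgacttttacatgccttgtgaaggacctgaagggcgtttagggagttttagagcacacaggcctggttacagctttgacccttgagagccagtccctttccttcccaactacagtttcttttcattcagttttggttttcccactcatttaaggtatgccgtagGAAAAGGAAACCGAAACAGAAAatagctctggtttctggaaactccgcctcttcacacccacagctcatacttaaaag
Oas1a: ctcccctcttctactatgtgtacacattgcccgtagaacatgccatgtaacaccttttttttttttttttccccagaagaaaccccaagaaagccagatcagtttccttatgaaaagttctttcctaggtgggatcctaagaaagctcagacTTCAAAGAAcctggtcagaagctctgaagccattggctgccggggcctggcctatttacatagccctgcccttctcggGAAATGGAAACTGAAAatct
Ifit1: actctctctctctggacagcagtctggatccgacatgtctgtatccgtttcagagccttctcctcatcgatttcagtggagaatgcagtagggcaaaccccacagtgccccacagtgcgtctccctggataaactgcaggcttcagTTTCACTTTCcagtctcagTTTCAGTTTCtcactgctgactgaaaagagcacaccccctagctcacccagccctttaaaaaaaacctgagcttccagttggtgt
Igtp: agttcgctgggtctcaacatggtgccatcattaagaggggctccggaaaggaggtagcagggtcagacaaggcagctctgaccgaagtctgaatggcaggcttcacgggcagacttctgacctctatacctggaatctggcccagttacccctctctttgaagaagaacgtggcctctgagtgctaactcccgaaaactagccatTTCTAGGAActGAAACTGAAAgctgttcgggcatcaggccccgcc
H2-K1: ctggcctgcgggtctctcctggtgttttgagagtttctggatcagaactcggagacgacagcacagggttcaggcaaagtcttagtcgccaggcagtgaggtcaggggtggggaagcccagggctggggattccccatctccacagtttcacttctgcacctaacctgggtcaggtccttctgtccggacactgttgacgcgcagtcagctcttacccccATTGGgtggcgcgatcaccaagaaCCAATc
H2-Aa: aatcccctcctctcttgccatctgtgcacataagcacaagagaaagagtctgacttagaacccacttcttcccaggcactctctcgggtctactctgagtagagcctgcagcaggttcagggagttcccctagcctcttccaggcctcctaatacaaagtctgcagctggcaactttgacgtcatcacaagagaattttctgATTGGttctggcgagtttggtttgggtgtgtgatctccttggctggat

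The targeted genes were examined first. Arntl, the symbol of Bmal1, had 5.91, 5.73 and 7.45 RPKM in knockout livers at CT0, against 16.3, 15.7 and 15.7 in controls, and 4.37, 3.59 and 4.01 in knockout livers at CT12, against 1.26, 0.680 and 1.21 in controls. Nr1d1 had 6.10 and 32.9 RPKM in the libraries labelled Nr1d1 knockout at CT0 in replicates 1 and 2, against 0.374 and 21.97 in controls, and 11.1 and 28.4 at CT12, against 3.45 and 33.4 in controls. Its level was therefore not lower in 3 of the 4 libraries labelled knockout. The deleted part of the gene is not given in the sources used here, so a value over a whole transcript does not check those labels. Arntl, which REV-ERBα is known to repress, had 8.00 and 19.3 RPKM in libraries labelled knockout at CT12, against 0.597 and 1.30 in controls.

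Of 9 hepatocyte markers found, Alb was the highest in both experiments, and in the Bmal1 experiment knockout and control livers did not overlap in their sum at either time. It was 31473 to 36972 RPKM in Bmal1 knockout livers at CT0, against 48033 to 53688 in controls, and 28316 to 31979 RPKM in Bmal1 knockout livers at CT12, against 39769 to 48439 in controls. In this experiment Alb averaged 25211 RPKM, against a median of 1507 over the 9 markers. Alb fell in knockout livers at CT0 and CT12 (-0.93 and -1.05, adjusted p = 0.00709 and 0.000528 by limma). At CT0 7 of 9 markers lay below 0, with a median of -0.22. At CT12 6 of 9 lay above 0, with a median of 0.03, and Fga was higher (0.87, adjusted p = 0.0079 by limma). The part of these differences in the members' values was not tested. Summed lymphocyte markers reached 2.08 to 5.48 RPKM in the Bmal1 libraries, and among the 14 found Cd3d, Cd3g, Cd8b1, Ms4a1, Klrb1c and Ncr1 were each at 0 in at least 1 of them. In bulk livers, fewer cells of a type and less RNA per cell cannot be told apart. RPKM values of replicate 2 of the Nr1d1 experiment stood on a higher scale than those of replicate 1 for the same genes, and no level is compared between replicates or between experiments.

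**Figure D1:**
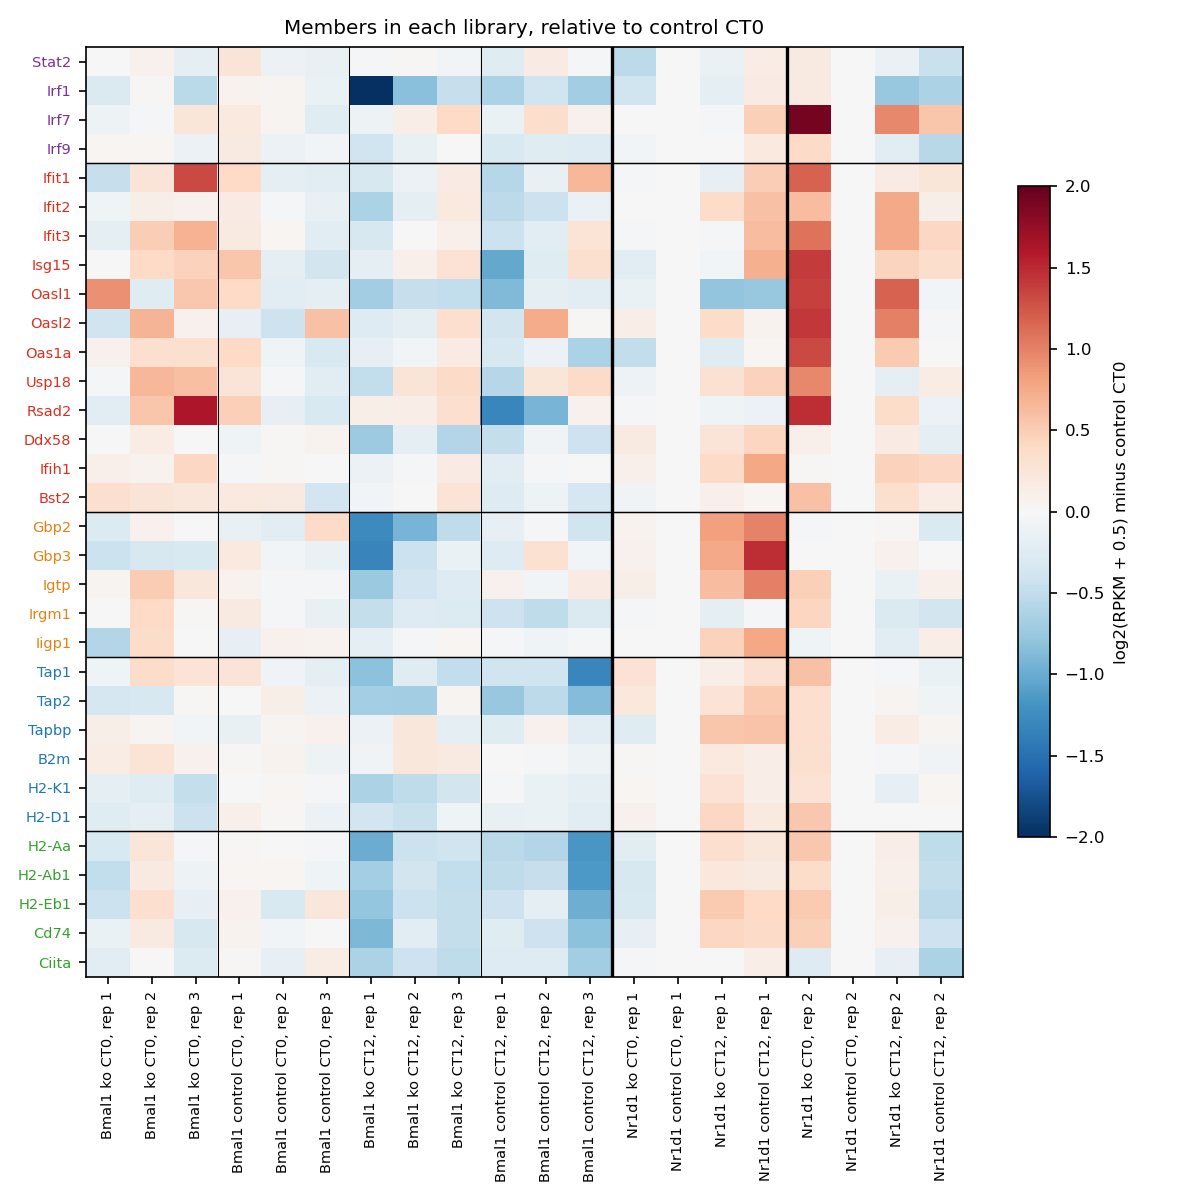
Each row is 1 of the 32 genes and each column 1 library, with colour for log2(RPKM + 0.5) minus its control CT0 value (mean of 3 libraries for Bmal1, the same replicate for Nr1d1; values past 2 take the end colour). The Nr1d1 knockout CT0 library of replicate 2 stands out in antiviral rows, and class II rows are low at CT12 in the Bmal1 experiment.

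In Bmal1 knockout livers the classical class I gene H2-K1 and the GTPase Igtp were lower than in controls at CT12, and the other members did not pass the test. H2-K1 encodes a heavy chain that presents peptides to cytotoxic T cells. It stood at 393, 429 and 473 RPKM in knockout livers at CT12, against 601, 556 and 533 in controls. All 3 knockout livers lay below all 3 controls, and H2-K1 fell (log2 difference -0.39 ± 0.10, SE, adjusted p = 0.0291 by limma). At CT0 it had 532, 517 and 439 RPKM in knockout livers, against 616, 626 and 592 in controls. The groups did not overlap there either, and the difference of -0.31 ± 0.10 did not pass (adjusted p = 0.171 by limma).

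Igtp, a GTPase that acts on the vacuoles of intracellular parasites, had 5.77, 7.57 and 8.28 RPKM in knockout livers at CT12, against 10.6, 9.60 and 11.2 in controls. The groups did not overlap, and Igtp fell (-0.52 ± 0.14, adjusted p = 0.0371 by limma). At CT0 it had 10.4, 14.3 and 11.8 RPKM in knockout livers, against 10.5, 9.73 and 9.75 in controls, and these groups overlapped.

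The 2 members called were 2 of 32, both lower, where limma called 9.68% of 11439 genes in all and 3.22% were called lower. The members' median log2 difference was 0.03, against 0.09 over all genes. Over the 5 GTPases the median was -0.52, with 4 below 0 and 1 called. Gbp2, a guanylate-binding protein of cell-autonomous defence, had 1.05, 1.47 and 2.12 RPKM in knockout livers, against 2.83, 3.17 and 2.34 in controls. Every knockout liver lay below every control, but the difference of -0.71 ± 0.21 missed the threshold (adjusted p = 0.0589 by limma; 0.0365 with median-ratio scaling). Neither call held without some single libraries. H2-K1 was lost without any 1 of the 3 controls at CT12 or without knockout CT12 replicate 1 or 2, and its adjusted p ranged from 0.0232 to 0.0963 by limma. Igtp was lost without the same libraries and also without control CT0 replicate 2 or 3 or knockout CT0 replicate 3, with an adjusted p of 0.0281 to 0.129 by limma. H2-K1 also missed the threshold under quantile normalization (adjusted p = 0.107) and Igtp with no filter on low values (adjusted p = 0.0579).

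H2-D1, the other classical class I heavy chain, had 357, 368 and 313 RPKM in knockout livers at CT0, against 452, 428 and 390.2 in controls, with no overlap. At CT12 it had 325, 311 and 398 RPKM in knockout livers, against 381, 387 and 359.6 in controls, and 1 knockout liver lay above every control. Neither difference passed (-0.29 ± 0.11 and -0.13 ± 0.11, adjusted p = 0.239 and 0.502 by limma). H2-K1, H2-D1 and the Qa genes are alike in sequence, and the authors' counting may have split reads between them.

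B2m, the light chain common to class I molecules, had 918, 1119 and 1088 RPKM in knockout livers at CT12, against 969, 947 and 894 in controls. It overlapped between the groups, and its difference was 0.15 ± 0.10 (adjusted p = 0.399 by limma). The peptide loading gene Tapbp differed by 0.10 ± 0.12, the peptide transporter subunits Tap1 and Tap2 by 0.18 ± 0.24 and 0.27 ± 0.19, and none of the 3 passed.

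**Figure D2:**
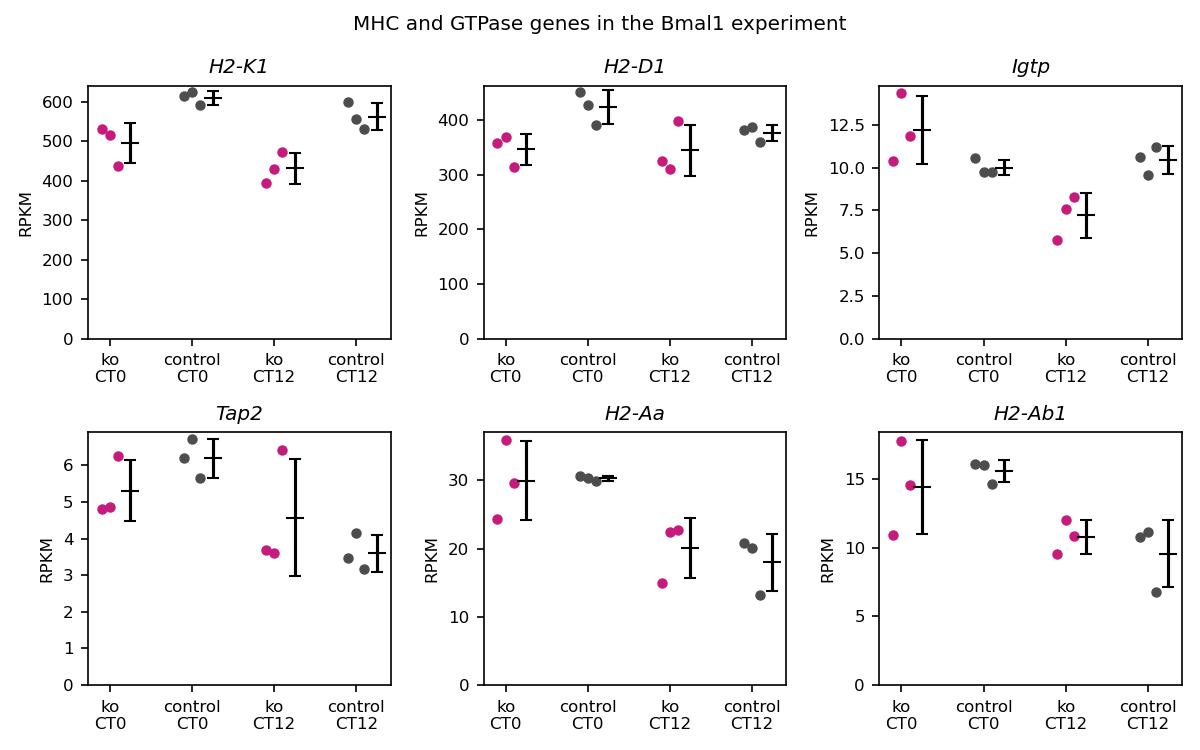
RPKM of 6 genes in the Bmal1 experiment, with 1 point per liver and the mean and SD (n = 3) beside the points. H2-K1 lies lower in both knockout groups than in the controls of the same time, Igtp is lowest in knockout livers at CT12, and Tap2, H2-Aa and H2-Ab1 are lower in controls at CT12 than in controls at CT0.

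Other interferon and presentation genes were measured beside the members. Of 94 tested, 2 were higher and 3 lower in knockout livers at CT12, where 9.68% of all genes were called and 3.22% called lower. Limma called 0 of 12 receptor and JAK pathway genes, 0 of 15 sensing genes and 0 of 36 further interferon-induced genes. Of 18 other class I pathway genes tested 3 were lower and 0 were higher. The Qa genes H2-Q7 (-0.77 ± 0.13, adjusted p = 0.00319) and H2-Q6 (-0.74 ± 0.17, adjusted p = 0.0155) fell, as did the immunoproteasome subunit Psmb10 (-0.65 ± 0.12, adjusted p = 0.0044 by limma). H2-Q7 had 11.1, 9.40 and 11.9 RPKM in knockout livers, against 19.1, 21.0 and 16.1 in controls. Psmb10 had 16.4, 13.9 and 16.9 RPKM in knockout livers, against 26.1, 26.4 and 22.5 in controls. Of 13 other class II pathway genes tested 2 were higher and 0 were lower. Rfxank, a subunit of the factor that binds MHC class II promoters, had 6.73, 6.04 and 4.36 RPKM in knockout livers, against 1.84, 1.74 and 2.17 in controls, and rose (1.35 ± 0.15, adjusted p = 0.000155 by limma). The lysosomal protease Ctsl, which processes the class II invariant chain, rose as well (0.79 ± 0.11, adjusted p = 0.000663 by limma). Over the 5 class II members the median was -0.03, and 0 were called.

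At CT0 the Bmal1 experiment gave no member call. Limma called 0 of 32 members (2 at an unadjusted p under 0.05), where it called 1.62% of all genes (13.6% at an unadjusted p under 0.05), and limma-voom on recovered reads called 0 of 27. All 12 antiviral genes had a difference above 0, with a median of 0.28 against 0.01 over all genes, and 0 had an unadjusted p under 0.05. The spread between livers was wide. Rsad2, the antiviral enzyme viperin, had 2.06, 3.85 and 8.64 RPKM in knockout livers, against 3.62, 2.16 and 1.90 in controls. Ifit1, which binds viral RNA that lacks a self cap, had 1.59, 2.96 and 6.73 RPKM in knockout livers, against 3.33, 2.02 and 2.01 in controls. In both genes knockout replicate 3 was the highest liver and the groups overlapped. Summed neutrophil markers were 106.3 to 230.02 RPKM in knockout livers at CT0, against 32.8 to 116.3 in controls, with 8 of 8 tested above 0, a median of 1.36, 8 at an unadjusted p under 0.05 and 0 called. At CT12 the sum was 18.7 to 47.6 RPKM in knockout livers, against 6.27 to 8.92 in controls, again with 8 of 8 above 0, and S100a8 and S100a9, which encode the subunits of calprotectin, rose (1.90 and 1.77, adjusted p = 0.0194 and 0.0155 by limma). The part of these cells in the members' values was not tested.

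The ubiquitin-like modifier gene Isg15 differed by 0.29 ± 0.31 at CT0 and 0.39 ± 0.31 at CT12. Bst2, which tethers budding virus to the cell and is the most abundant antiviral member, had 117, 111 and 109 RPKM in knockout livers at CT0, against 107, 106 and 71.6 in controls. Every knockout liver lay above every control, and the difference of 0.27 ± 0.15 did not pass (adjusted p = 0.467 by limma). Irf7, the factor that amplifies type I interferon production, had 12.0, 12.6 and 15.3 RPKM in knockout livers at CT0, against 14.7, 13.3 and 10.8 in controls. Irf1, an interferon gamma response factor, had 5.52, 12.9 and 16.9 RPKM in knockout livers at CT12, against 14.9, 17.6 and 14.3 in controls, and knockout replicate 1 was the lowest. Both genes overlapped between the groups, and none of the 4 signalling members passed at either time.

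In control livers of the Bmal1 experiment the class II genes H2-Aa and H2-Ab1 and the class I transporter gene Tap2 were lower at CT12 than at CT0. H2-Aa, the alpha chain of the class II molecule I-A, had 20.8, 20.0 and 13.2 RPKM in controls at CT12, against 30.6, 30.4 and 29.9 at CT0. The times did not overlap, and H2-Aa fell (-0.76 ± 0.20, adjusted p = 0.031 by limma). Its partner H2-Ab1, the beta chain, had 10.8, 11.1 and 6.77 RPKM at CT12, against 16.1, 16.0 and 14.7 at CT0. It fell as well (-0.71 ± 0.19, adjusted p = 0.0381 by limma), again with no overlap. Tap2, a subunit of the transporter that feeds peptides to class I, had 3.46, 4.17 and 3.17 RPKM at CT12, against 6.19, 6.71 and 5.67 at CT0, and fell (-0.71 ± 0.19, adjusted p = 0.0351 by limma).

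These were 3 of 32 members, all lower, where 10.8% of 11439 genes were called in all and 7.43% were called lower. The members' median was -0.25, against -0.08 over all genes, and 28 of 32 lay below 0. All 5 class II members lay below 0 with a median of -0.53 and an unadjusted p under 0.05. Cd74, the invariant chain that guides class II to the endosome, had 58.4, 51.6 and 39.0 RPKM at CT12, against 72.7, 66.4 and 68.4 at CT0, with a difference of -0.49 ± 0.18 (adjusted p = 0.112 by limma). H2-Eb1, the I-E beta chain, differed by -0.53 ± 0.23, and Ciita, the master activator of class II transcription, by -0.41 ± 0.17 at under 1 RPKM in every library of the experiment. Control CT12 replicate 3 had the lowest value of the 3 controls at CT12 for all 5. In controls of the Nr1d1 experiment the replicates went different ways between the times. In replicate 1 all 5 class II members lay above 0, with a median of 0.23 against 0.20 over all genes. With median-ratio scaling 4 did, with a median of 0.06 against 0.02. In replicate 2 all 5 lay below 0, with a median of -0.51 against -0.04. Tap2 differed by 0.53 in replicate 1 and by -0.08 in replicate 2, with 1 library on each side.

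Each of the 3 calls was lost without any 1 of the 3 controls at CT0 or without control CT12 replicate 3. H2-Ab1 and Tap2 were also lost without control CT12 replicate 1, and H2-Ab1 without knockout CT0 replicate 3. The adjusted p with 1 library left out was 0.0187 to 0.111 for H2-Aa, 0.0227 to 0.131 for H2-Ab1 and 0.00762 to 0.121 for Tap2 by limma. With no filter on low values 0 of the 3 passed (adjusted p 0.0545 to 0.0647). Tap2 and H2-Ab1 missed the threshold under quantile normalization as well (adjusted p = 0.0588 and 0.0505), Tap2 by limma-voom (adjusted p = 0.0749) and H2-Ab1 with median-ratio scaling (adjusted p = 0.0523).

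Markers of several non-parenchymal cell types had differences of the same sign. The neutrophil markers differed most, with 8 of 8 tested below 0, a median of -1.82 and 6 called lower, and their sum was 6.27 to 8.92 RPKM in controls at CT12, against 32.8 to 116.3 at CT0. Summed Kupffer cell markers were 142.1 to 210.1 RPKM in controls at CT12, against 231.7 to 299.6 at CT0. All 11 found had a difference below 0, with a median of -0.63, 1 was called, and 0 of them were at 0 in any library. All 9 endothelial markers (summed 74.4 to 85.2 RPKM at CT12, against 110.05 to 132.1 at CT0) and all 10 stellate cell markers (101.8 to 119.4, against 138.8 to 196.7) had differences below 0 too, with 2 and 3 called. The summed dendritic cell markers were 4.6 to 6.76 RPKM at CT12, against 6.35 to 7.93 at CT0. Hepatocyte markers went the same way, with 7 of 9 tested below 0, a median of -0.23 and 1 called lower. Their sum was 39769 to 48439 RPKM in controls at CT12, against 48033 to 53688 at CT0. The part of these cells in the class II values was not tested.

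In Bmal1 knockout livers only Igtp passed between the times. It had 5.77, 7.57 and 8.28 RPKM at CT12, against 10.4, 14.3 and 11.8 at CT0, and fell (-0.72 ± 0.14, adjusted p = 0.0267 by limma). In controls Igtp had 10.6, 9.60 and 11.2 RPKM at CT12, against 10.5, 9.73 and 9.75 at CT0, a difference of 0.06 ± 0.14. This was 1 of 32 members, where 1.9% of all genes were called and 0.988% were called lower. The members' median was -0.31, against -0.005 over all genes, and 29 of 32 lay below 0. The Igtp call was lost without knockout CT0 replicate 2 or 3 or knockout CT12 replicate 1 or 2 (adjusted p 0.0238 to 0.0839 by limma). With knockout CT12 replicate 3 left out Gbp2 passed beside it, giving 2 members.

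The class II median in knockout livers was -0.45, with 5 of 5 below 0 and 0 called. H2-Aa had 15.0, 22.4 and 22.8 RPKM at CT12, against 24.4, 35.9 and 29.7 at CT0, with a difference of -0.57 ± 0.20 (adjusted p = 0.145 by limma). The antiviral members had a median of -0.31 and 12 of 12 below 0, led by Oasl1 (-0.95 ± 0.28) and by the RNA sensor gene Ddx58 (-0.55 ± 0.14), which did not pass. Ddx58 had 7.60, 11.2 and 8.46 RPKM at CT12, against 12.9, 14.3 and 13.0 at CT0, with no overlap. Cell markers differed between the times in the same knockout livers as well, with medians of -2.11 over 8 neutrophil markers (8 below 0, 5 called), -0.83 over 10 stellate cell markers (10 below 0, 2 called), -0.38 over 11 Kupffer cell markers (10 below 0, 0 called) and -0.38 over 9 endothelial markers (9 below 0, 0 called). Hepatocyte markers went the other way, with 6 of 9 above 0, a median of 0.06 and 0 called. Medians were -0.04 over 3 dendritic cell markers and -0.09 over 3 lymphocyte markers, with 2 of 3 below 0 in each. The part of all these cells in the class II and antiviral values was not tested.

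The test of whether time acted differently in the genotypes called 0 of 32 members by limma (1 at an unadjusted p under 0.05) and 0 of 27 by limma-voom, where limma called 1.31% of all genes (11.9% at an unadjusted p under 0.05). For Igtp the interaction was -0.78 ± 0.20 (adjusted p = 0.0962 by limma), and for H2-Aa it was 0.19 ± 0.28 (adjusted p = 0.854). A difference between knockout and control livers in these time courses was therefore not shown.

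**Figure D3:**
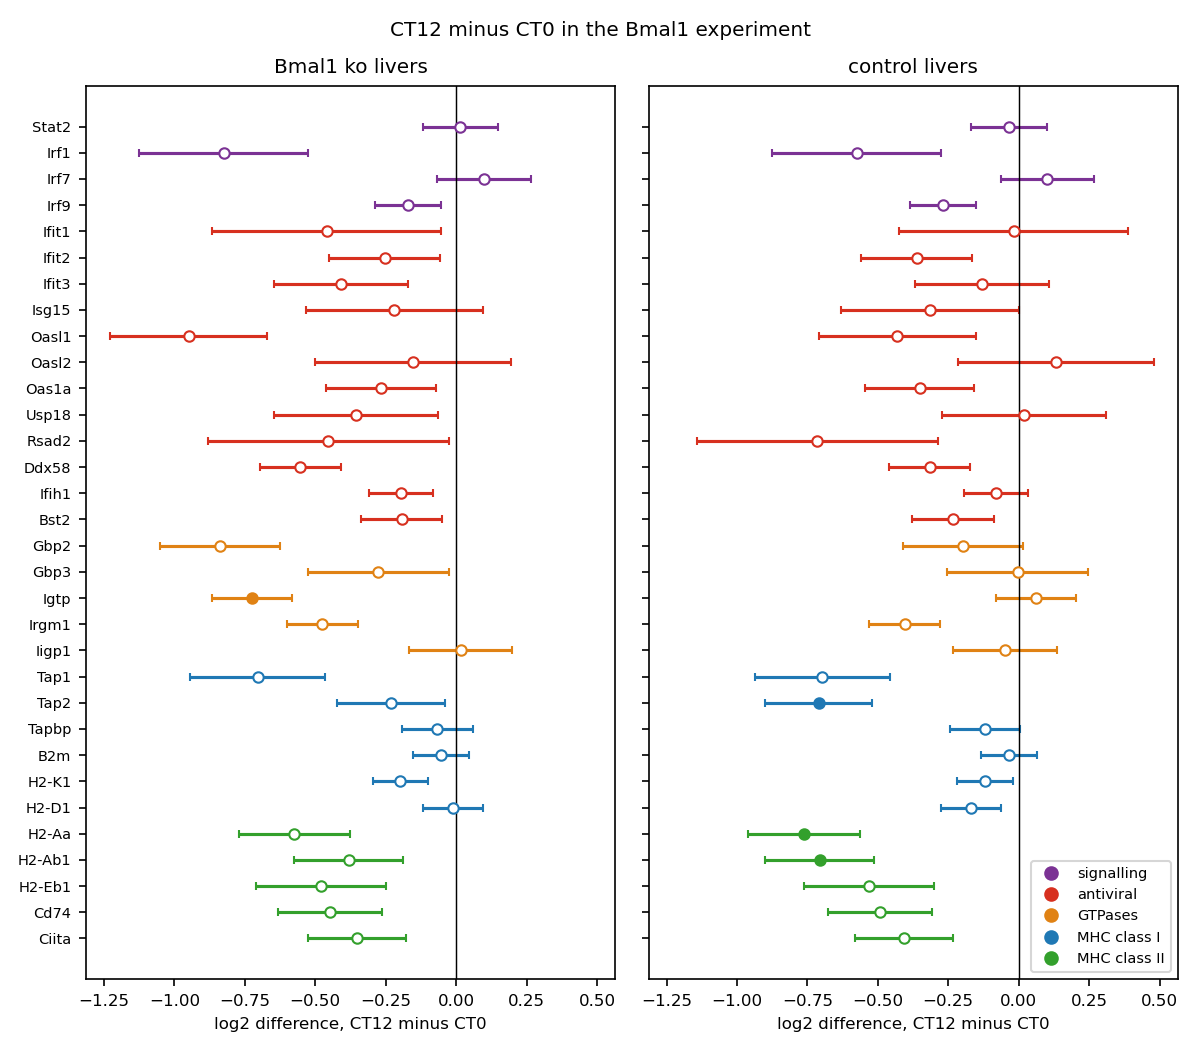
Log2 difference of CT12 minus CT0 with its SE for each of the 32 genes in Bmal1 knockout livers (left) and control livers (right), coloured by role, with filled points for genes that passed the test. To the left of 0 lie 29 of 32 genes in knockout livers and 28 of 32 in controls, all class II genes among them in both panels. Igtp does so in knockout livers only.

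Among other interferon and presentation genes, 2 of 94 tested rose and 12 fell at CT12 in controls, where 10.8% of all genes were called. In knockout livers 0 rose and 3 fell, where 1.9% of all genes were called. Rfxank, with 1.84, 1.74 and 2.17 RPKM in controls at CT12 against 5.84, 4.59 and 4.73 at CT0, had the largest fall of these in controls (-1.20 ± 0.15, adjusted p = 0.000444 by limma). The interferon-induced genes Ifi47 (-0.95 ± 0.21), Cmpk2 (-0.91 ± 0.25) and Xaf1 (-0.90 ± 0.15) and the class I chaperone Calr (-0.71 ± 0.10) fell in controls as well. In knockout livers H2-Q6 (-1.11 ± 0.17), Xaf1 (-0.79 ± 0.15) and the phosphatase gene Ptpn6 (-0.72 ± 0.15) fell. Xaf1 had 2.77, 3.94 and 4.38 RPKM in knockout livers at CT12, against 5.98, 7.01 and 6.97 at CT0.

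In the Nr1d1 experiment no member passed in any comparison, and the replicates went different ways. In replicate 2 the library labelled knockout at CT0 had higher values of Irf7 and most antiviral genes than its control, and in replicate 1 it did not. Irf7 had 178 RPKM in the knockout library of replicate 2, against 47.0 in its control. In replicate 1 it had 8.88 RPKM in the knockout library, against 8.93 in its control. Isg15 had 77.3 RPKM in the knockout library of replicate 2, against 29.0 in its control. The same gene had 2.04 RPKM in the knockout library of replicate 1, against 2.45 in its control.

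The active members of the oligoadenylate synthase family make the messenger that switches on RNase L. Oas1a had 24.2 RPKM in the knockout library of replicate 2, against 9.37 in its control, and 1.36 against 2.10 in replicate 1. Oasl1 had 40.5 RPKM in the knockout library of replicate 2, against 15.4 in its control, and 5.79 against 6.39 in replicate 1. Oasl2 had 12.9 RPKM in the knockout library of replicate 2, against 4.52 in its control, and in replicate 1 its knockout library was the higher one too, at 0.924 against 0.805. In replicate 1 the knockout library was thus below its control for Oas1a and Oasl1 and above it for Oasl2. Viperin, the product of Rsad2, belongs to another family. Rsad2 had 5.73 RPKM in the knockout library of replicate 2, against 1.75 in its control, and 1.53 against 1.59 in replicate 1. In these 4 genes the knockout library of replicate 2 was more than 2-fold above its control and that of replicate 1 was not.

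With 1 library on each side there is no test within a replicate, and a log2 difference of at least 1 was used to count genes. At CT0 in replicate 2, 8 of 32 members were higher by that much, where 3.37% of 12738 genes were higher by that much. They were Irf7 and 7 of the 12 antiviral genes, namely Ifit1, Ifit3, Isg15, Oasl1, Oasl2, Oas1a and Rsad2. The median of the 12 antiviral members was 1.13, against -0.01 over all genes. In replicate 1, 0 of 32 members were higher by that much, where 0.377% of all genes were, and the antiviral median was -0.04 against -0.08. With median-ratio scaling the count in replicate 2 was again 8. Of 97 other pathway genes 11 were higher by that much in replicate 2 and 0 in replicate 1, and 7 of the 11 were among 35 further interferon-induced genes. With median-ratio scaling these counts in replicate 2 were 6 of 97 and 3 of 35.

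Not every antiviral gene differed in replicate 2. The cytosolic RNA sensors Ddx58 and Ifih1 had log2 differences of 0.11 and 0.02, and Bst2 one of 0.59. Bst2 had 729 RPKM in the knockout library, against 484 in its control. The GTPases had a median of -0.01, class I a median of 0.33 and class II a median of 0.47. Their largest values were 0.48 for Igtp, 0.59 for Tap1 and 0.54 for H2-Aa. B2m had 8025 RPKM in the knockout library of replicate 2, against 6439 in its control.

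**Figure D4:**
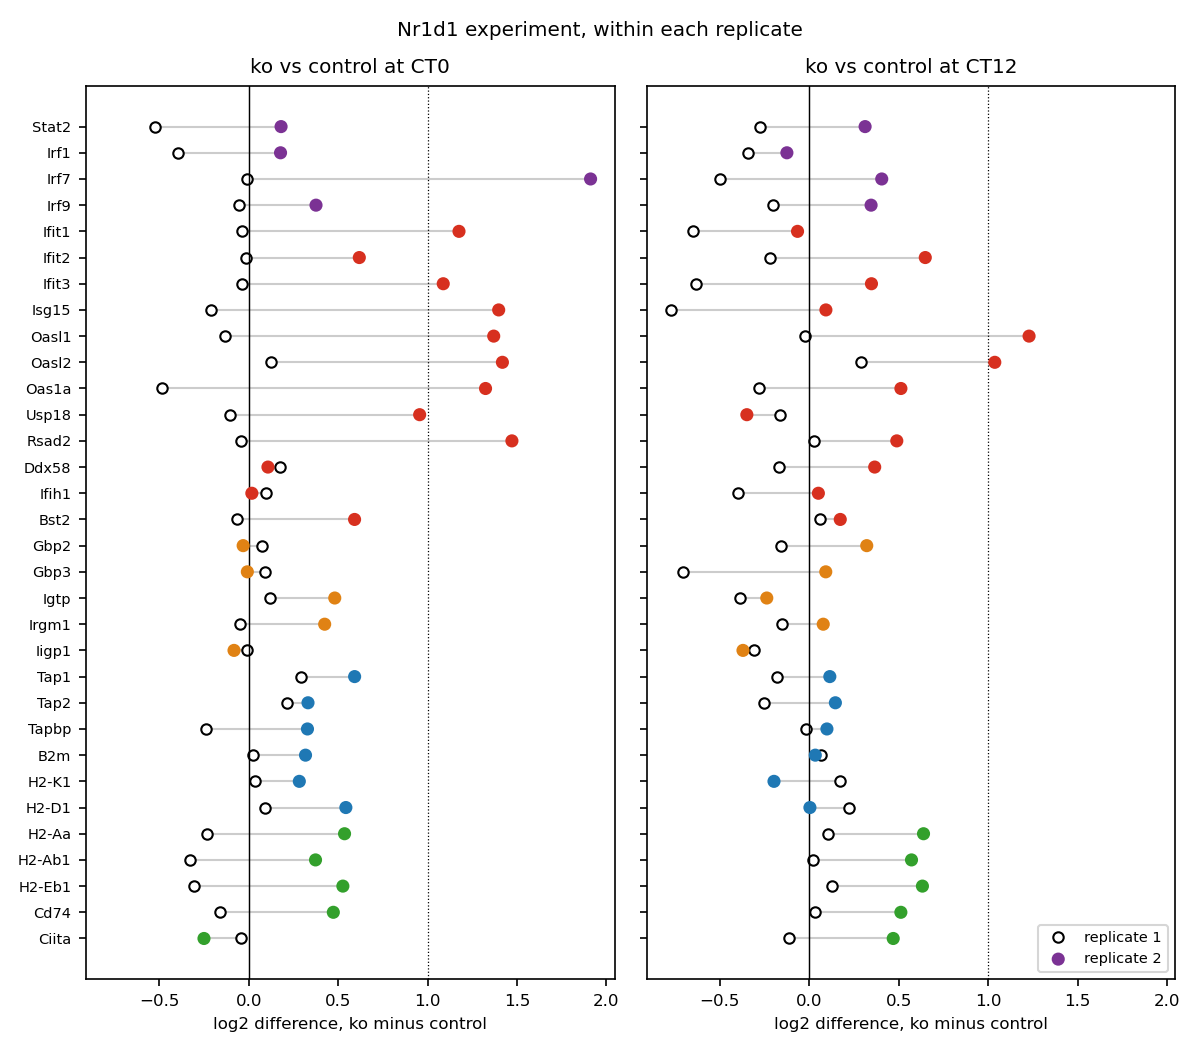
Log2 difference of knockout minus control for each of the 32 genes within replicate 1 (open points) and replicate 2 (filled points, coloured by role) of the Nr1d1 experiment, at CT0 (left) and CT12 (right), with a dotted line at 1. At CT0, 8 filled points and 0 open points lie past the line.

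At CT12 fewer members of replicate 2 were past that difference than at CT0. In replicate 2 the genes past that difference were Oasl1 and Oasl2, 2 of 32 members, where 3.86% of all genes were higher by that much, and with median-ratio scaling only 1 member was. Oasl1 had 35.4 RPKM in the knockout library, against 14.8 in its control. In replicate 1 the count was 0, where 1.19% of all genes were higher by that much. There 22 of 32 members were below 0, with a median of -0.17 against -0.01 over all genes, among them 9 of 12 antiviral genes, 5 of 5 GTPases (median -0.31) and 4 of 4 signalling genes. The lowest were Isg15 at -0.78, Gbp3 at -0.71, Ifit1 at -0.65 and Ifit3 at -0.63. Irf7 had 92.3 RPKM in the knockout library of replicate 2, against 69.6 in its control, and 8.72 against 12.6 in replicate 1. All 5 class II genes were higher in the knockout library of replicate 2, with a median of 0.57, and in replicate 1 their median was 0.03. The sign of the difference was the same in both replicates for 11 of 32 members at CT0 and 14 at CT12, and for 50.9% and 54.5% of all genes.

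With replicate number as a block, limma called 0 of 32 members at CT0 and 0 at CT12, and 0 at an unadjusted p under 0.05 in both, where it called 0% and 0.0393% of all genes. At an unadjusted p under 0.05 it counted 4.51% and 4.55% of all genes. Limma-voom called 0 of 27 at both times. For Irf7 at CT0 the difference was 0.95 ± 0.43 (adjusted p = 0.873). Between CT12 and CT0, 0 members were called in knockout livers (0 at an unadjusted p under 0.05) and 0 in controls (1 at an unadjusted p under 0.05), where 0.055% and 0.353% of all genes were called and 14.4% and 8.09% had an unadjusted p under 0.05. The interaction called 0 members (0 at an unadjusted p under 0.05) and 0% of all genes (4.22%), and limma-voom called 0 of 27 members in each of these 3 comparisons. In knockout livers the median of all genes between the times was 0.16, and 0.06 with median-ratio scaling.

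Among the marker sums of the same libraries at CT0 some were higher in the knockout library of replicate 2 and some lower. Summed Kupffer cell markers, with 0 of the 11 found at 0 in any library, were 1190.3 RPKM in the knockout CT0 library of replicate 2, against 649.01 in its control, and 154.7 against 156.3 in replicate 1. Summed neutrophil markers were 47.99 RPKM in that library, against 17.2 in its control, and 1.78 against 1.81 in replicate 1. Of these 9 markers 6 were at 0 in at least 1 library of the experiment. Ly6g was the highest, with a mean of 8.53 RPKM against a median of 0.398. Summed lymphocyte markers were 30.2 against 18.98 in replicate 2 and 3.12 against 3.07 in replicate 1. Summed dendritic cell markers were 24.2 against 19.3 in replicate 2 and 3.37 against 4.12 in replicate 1. Summed endothelial markers were lower, at 273.8 RPKM in that library against 350.3 in its control, as were stellate cell markers at 293.3 against 349.2 and hepatocyte markers at 248146 against 255891. At CT12 each of these sums was higher in the knockout library of replicate 2 than in its control. Kupffer cell markers were 989.3 RPKM against 681.6, endothelial markers 327.97 against 223.3, stellate cell markers 524.9 against 303.1 and dendritic cell markers 21.4 against 17.6. In replicate 1 endothelial, stellate and hepatocyte sums were higher at CT12 than in the control and the other sums lower. The part of these cells in the antiviral and class II values was not tested.

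The knockout effects of the experiments were set against each other in 1 fit of all 20 libraries. At CT0 limma called 0 of 32 members for the difference of Bmal1 and Nr1d1 knockout effects (2 at an unadjusted p under 0.05), where it called 0.146% of 12331 genes (10.3% at an unadjusted p under 0.05). At CT12 it called 0 (0 at an unadjusted p under 0.05), where 0.146% of all genes were called and 7.15% had an unadjusted p under 0.05, and limma-voom called 0 of 27 at both times. Without replicate 1 of the Nr1d1 knockout at CT0, Irf7 (-1.69, adjusted p = 0.0321 by limma) and H2-D1 (-0.94, adjusted p = 0.0344) passed at CT0. The knockout CT0 group then held only the library of replicate 2, and its spread was taken from the other groups, as if it varied like them. With all libraries their differences were -0.91 ± 0.44 and -0.61 ± 0.22 (adjusted p = 0.498 and 0.368).

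The most abundant GTPase, Iigp1, which coats parasite vacuoles, had 73.9, 82.9 and 86.5 RPKM in Bmal1 knockout livers at CT12, against 82.8, 78.8 and 82.4 in controls. Irgm1, a regulator of these GTPases, had 16.5, 19.3 and 19.1 RPKM in the same knockout livers, against 17.3, 16.1 and 18.8 in controls. Both overlapped between the groups, unlike Igtp and Gbp2. In the Nr1d1 experiment Iigp1 had 26.0 and 59.5 RPKM in knockout libraries at CT0 in replicates 1 and 2, against 26.1 and 63.1 in controls. It showed no rise in the replicate in which Irf7 and the antiviral genes stood high.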

How the data were processed

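The RNA-seq values were deposited by the authors as RPKM per Ensembl transcript and library. TopHat2, Bowtie and bedtools 2.19.1 with build mm9 are named in the submitters' processing notes, Bowtie not among them for the paired-end libraries. No source used here gives the annotation release, read filters or strand setting. RNA was made into TruSeq libraries, per the labels' protocols. The 6 4C libraries are not used here.

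Tables were joined on 46585 transcripts, and each symbol took its transcript with the highest mean log2 value. Limma 3.58.1 in R 4.3.3 was fitted to log2(RPKM + 0.5) after genes averaging under 0.5 RPKM were left out. The added 0.5 understates differences of low genes. Two-sided p-values were adjusted by Benjamini-Hochberg over all genes of a contrast, with a threshold of 0.05. Each library's deviations from its group mean were correlated between same-numbered libraries of different groups. These correlations of deviations were 0.817 to 0.878 in the Nr1d1 experiment, where only replicate 2 is labelled paired-end, so replicate number was a block there. In the Bmal1 experiment they were -0.06 to 0.12, and no block was used. The labels give separate mice. The fits were tested on simulated data.

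Whole reads were recovered from the steps of RPKM values, within a tolerance of 0.05, for 92.1% of 19183 transcripts above 0, and for 27 of the 32 members. Only their ratios between libraries are fixed, since a transcript's reads could be a multiple of those found. In these units (M for mega), the libraries held 1.84 to 3.05 M in the Bmal1 experiment and 5.49 to 37.37 M in the Nr1d1 experiment, and a member held 8 to 4999 and 34 to 19931 reads. They fed limma-voom, an alternative chosen after seeing the data. The members and lists were chosen with earlier results of these data known. All members are described, with values in every library for those called and for the most abundant of each role, and at most 5 other pathway genes are named per contrast. Further genes were named after their values were seen, among them Gbp2, H2-D1, Rsad2, Ifit1, Oas1a, Oasl1 and Isg15.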

Additional observations from a re-analysis of the deposited data

How the results depend on the processing

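Across single genes and comparisons, 7081 alternative values were computed for the 32 members. Of these, 41 lost a call, 14 gained one, 0 reversed a called direction, and 519 uncalled values changed sign. For Bmal1 knockout against control at CT12, where 2 members were called, 1 was called with no filter on low values and 1 by limma-voom on recovered reads, and leaving out 1 library gave 0 to 3. For CT12 against CT0 in controls, where 3 were called, 0 were called with no filter and 1 with quantile normalization, and leaving out 1 library gave 0 to 4. For CT12 against CT0 in Bmal1 knockout livers, where 1 was called, leaving out 1 library gave 0 to 2. A replicate block in the Bmal1 experiment, whose numbers do not pair the livers, gave 2 members there, Ddx58 being added. For the difference of knockout effects at CT0, where 0 were called, leaving out 1 library gave 0 to 2. Without the replicate block the Nr1d1 experiment gave 0 members in every comparison. The fit with edgeR on recovered reads was not run, and limma-voom on these reads took its place. It had no reads for Bst2, B2m, H2-K1, H2-D1 and Cd74. The cause of the changes was not tested. Counting error is largest for members with few reads, such as Oasl2 with 8 to 23 recovered reads in the Bmal1 libraries.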
